A study of Bombyx mori with 12 samples.

Results

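Of the 1128 peaks of Ultrabithorax (Ubx) binding listed for hindwing buds of the silkworm Bombyx mori, 419 (37.1%) lay close to another peak and are described here. A peak was counted as clustered when the gap to its nearest neighbour on the same scaffold, measured from edge to edge, was at most 30 kb, and chains of such peaks are called multi-peak loci. The members were thus selected on the measured positions of the hindwing peaks, and those positions, with the strength and width from the same peak call, are described below without a test. The other 709 hindwing peaks had no neighbour within 30 kb.

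The peaks come from chromatin immunoprecipitation followed by sequencing (ChIP-seq) of wing buds, the larval precursors of the wings, in a study that compared where Ubx binds in hindwing and forewing buds. All 12 samples were from larvae of the fourth instar of the strain Daizo and fell into 6 groups of 2 replicates, namely anti-Ubx ChIP, input chromatin and a control with normal rabbit IgG, each from buds of the second (forewing) and of the third (hindwing) thoracic segment. Each isolation pooled 80 buds of either kind, the antibody was raised in rabbit against the N-terminal region of Bombyx Ubx, and the libraries were read as single ends of 36 bp. The forewing bud includes the peripodial membrane, the thin cell sheet to which the study assigns the Ubx of that bud, so a forewing peak need not come from cells of the wing proper. Peaks common to both anti-Ubx replicates formed 1 list per wing bud, with no values per replicate and no sequencing depth, so no value given for a peak has a replicate error.

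Ubx is a Hox protein, a transcription factor that gives the third thoracic segment its identity and that makes the hindwing develop differently from the forewing. Hox proteins recognise short, common DNA motifs through their homeodomain, often together with cofactors, and regulate genes through enhancers that can lie far from the gene they control. Developmental genes of insects often have several such enhancers spread over long stretches of DNA, and a transcription factor may bind more than one of them.

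The 419 clustered peaks formed 174 multi-peak loci on 81 of the 188 scaffolds that held a hindwing peak. Most loci were pairs. There were 132 loci of 2 peaks (75.9%), 27 of 3, 6 of 4, 6 of 5, 1 of 6 and 2 of 7 peaks. Loci of 3 or more peaks numbered 42 and held 155 peaks, and the 9 loci of 5 or more peaks held 50. From the start of the first to the end of the last peak a locus spanned 1109 to 110992 bp, with a median of 16896.5 bp and quartiles of 6269.8 and 25994.5 bp. The median span was 14076.5 bp for pairs, 23254 bp for loci of 3 peaks and 36506 bp for loci of 4 or more. Spans under 5 kb were found in 33 loci and spans over 50 kb in 6. All spans together came to 3.22 Mb, which was 0.812% of the 396.03 Mb covered by the scaffolds with a hindwing peak, taking each scaffold to end at the last peak in any list. Within a locus the peaks covered between 4.06% and 99.8% of the span, with a median of 14.2%, so in most loci the peaks were islands separated by much longer stretches without a listed peak.

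**Figure D1:**
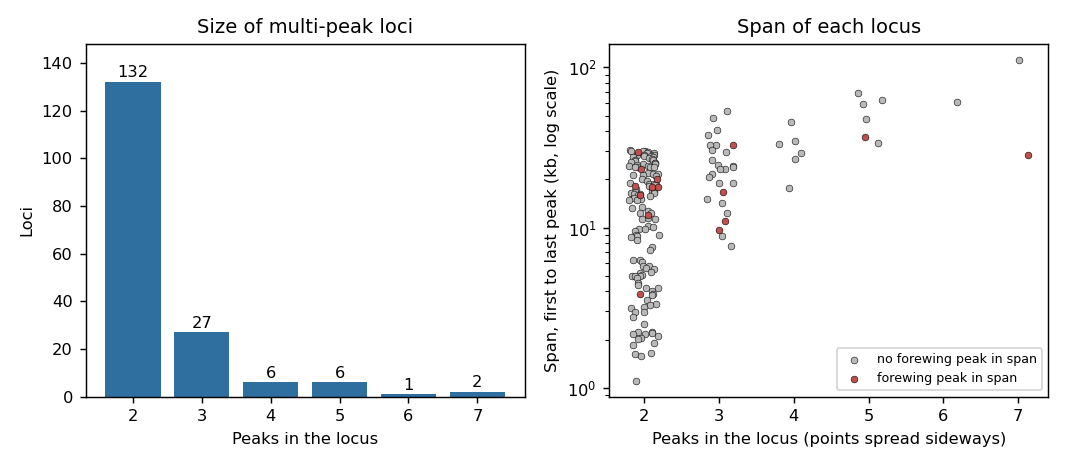
The left panel plots the number of multi-peak loci by the number of hindwing peaks they hold, and the right panel plots the span of each locus in kb on a log scale, with loci that hold a forewing peak in red. Pairs made up 132 of the 174 loci, spans reached from 1109 to 110992 bp, and 15 loci held a forewing peak in their span.

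The 245 gaps between neighbouring peaks of a locus ranged from 4 to 29122 bp, with a median of 9992 bp and quartiles of 2740 and 18348 bp. Gaps of at most 1 kb were 31 (12.7%), gaps of at most 5 kb were 92 (37.6%) and gaps of at most 10 kb were 123 (50.2%). Short gaps were thus the commonest, and the number of gaps per 10 kb fell up to the limit and went on falling, less evenly, beyond it. It was 123, 73 and 49 in the 3 bins below 30 kb and 42, 28 and 29 in the 3 bins above. The plot of gaps shows no break at 30 kb, so the limit divides a continuous range of spacings. Beyond the limit there were 695 gaps on a shared scaffold, with a median of 216343 bp, and 72 of the other peaks were the only hindwing peak of their scaffold. Assembly edges bear on this, since a neighbour beyond the end of a scaffold is not seen. Of the other peaks 73 (10.3%) lay within 30 kb of the start or the last listed peak end of their scaffold, against 13 (3.10%) of the clustered peaks.

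**Figure D2:**
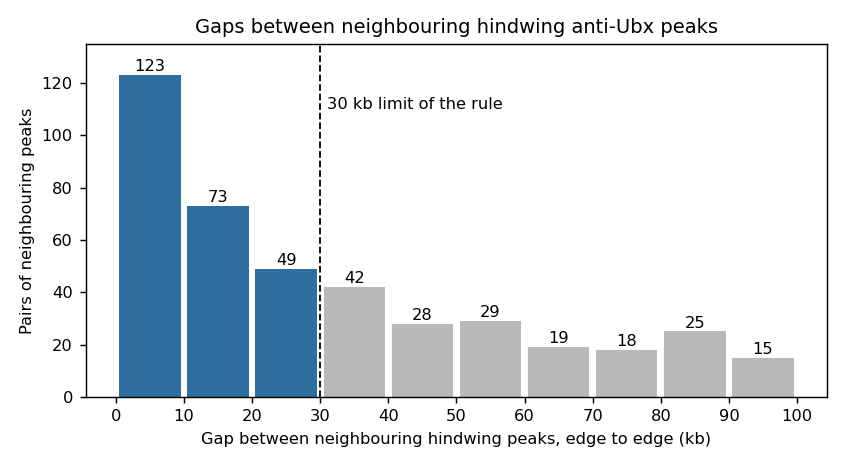
Bars give the number of pairs of neighbouring hindwing peaks by the gap between their edges, in bins of 10 kb up to 100 kb, with gaps inside multi-peak loci in blue and wider gaps in grey. The count fell from 123 in the first bin to 49 just below the 30 kb limit and was 42 just above it.

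The smallest gaps separated peaks that almost touched. On nscaf2943 the peak at 1369844 to 1371312 (fold enrichment over input 5.03) ended 4 bp before the peak at 1371317 to 1372212 (fold 3.14). On nscaf3034 the peaks at 297648 to 299058 (fold 6.05) and 299064 to 300471 (fold 7.01) were 5 bp apart. On nscaf2759 the peaks at 341090 to 341845 (fold 2.89) and 341853 to 342728 (fold 3.53) were 7 bp apart. Such neighbours were listed as separate peaks, and 13 gaps in all were at most 300 bp, the band width that the headers give for the IgG peak calls. Merging neighbours within 1 kb, an alternative chosen after the data were seen, left 372 clustered peaks in 158 loci. At the other end, the pairs just inside the limit were on nscaf2589 (5228378 to 5229290 and 5257730 to 5258474, gap 28439 bp, folds 4.85 and 3.95), on nscaf2943 (1318188 to 1318785 and 1347288 to 1348643, gap 28502 bp, folds 3.54 and 2.39) and on nscaf2888 (9219249 to 9219846 and 9248969 to 9249851, gap 29122 bp, folds 4.70 and 2.80). Just outside it were pairs on nscaf2986 (409869 to 410488 and 440892 to 441467, gap 30403 bp, folds 3.75 and 4.40), on nscaf3099 (451271 to 452279 and 482716 to 483341, gap 30436 bp, folds 5.34 and 2.42) and on nscaf3035 (704794 to 705516 and 736772 to 737704, gap 31255 bp, folds 2.88 and 2.75). Pairs on either side of the limit had folds in overlapping ranges.

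The peak names allowed a second view of the space between neighbours. Each listed peak carries a running number from the peak call, these numbers ran from 2 to 8527, and they rose with position on all 188 scaffolds without exception. A number that is missing between neighbours therefore stands for a peak of that call that is not in the common list, and is called unlisted here. The sources do not say at which step each of them was dropped. Within loci 115 of the 245 neighbouring pairs (46.9%) had no unlisted peak between them, 68 had 1 and 62 had 2 or more. In total 256 unlisted peaks lay in the gaps of the loci, or 9.33 per 100 kb of gap, against 1.83 per 100 kb in the gaps above the limit. The density fell with the length of the gap throughout. It was 14.9 per 100 kb in gaps up to 10 kb, 10.2 between 10 and 20 kb and 6.65 between 20 and 30 kb, and beyond the limit 5.48 in the 176 gaps up to 100 kb, 2.81 in the 241 gaps up to 300 kb and 1.45 in the 278 longer gaps. Per 100 kb, the stretches between clustered peaks thus held more calls outside the common list than the wider gaps did. The gaps and the numbers come from the same peak call, so a stretch dense in calls tends to give short gaps and many unlisted peaks. The fall with gap length is therefore tied to the rule and was not tested. Unlisted peaks were absent from 70 loci, and the most in a locus was 11.

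The locus with most peaks and the longest span lay on nscaf2902, from 2215481 to 2326472 (110992 bp). Its 7 peaks measured 894 to 1801 bp, covered 7.97% of the span and were separated by gaps of 16318, 17867, 19399, 6770, 17036 and 24755 bp. Their fold enrichments were, in order along the scaffold, 4.71, 6.70, 3.53, 3.67, 5.26, 8.97 and 3.47. The peaks of highest fold were the sixth, at 2299789 to 2300823, and the second, at 2233447 to 2235247. Only 3 unlisted peaks fell in its gaps. No forewing peak lay in this span, and the nearest was at 2337236 to 2338987, beyond its end. The first peak overlapped a peak of the second IgG list.

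The other locus of 7 peaks, on nscaf2993 from 4763106 to 4791371, was compact, with peaks over 55.6% of its 28266 bp. It began with the clustered peak of highest score, at 4763106 to 4770773. The score is 10 times the negative decimal logarithm of the p-value, and here it was 3100, the value at which the p-value underflows, with a fold of 8.14 and a width of 7668 bp. Gaps of 5447, 3305, 67, 13, 1322 and 2385 bp followed, and the remaining 6 peaks had folds of 4.58, 3.12, 4.52, 4.79, 4.69 and 3.27. The peaks from the third to the fifth nearly abutted and were the only part of the locus with gaps under 1 kb.

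The other loci of 5 and 6 peaks differed in how much of their span the peaks covered. On nscaf2943, from 1311833 to 1372212, 6 peaks of low fold (2.39 to 5.03) covered 9.51% of 60380 bp, in groups of 3, 1 and 2 peaks set apart by 28502 and 21200 bp. On nscaf2888, from 9196390 to 9265547, 5 peaks with folds of 2.80 to 4.70 covered 6.25% of 69158 bp. On nscaf2847, from 1868174 to 1926986, 5 peaks with folds of 3.03 to 4.49 covered 6.14% of 58813 bp. In these 3 loci no peak scored above 281.08. On nscaf2902 from 6011064 to 6058824, 5 peaks with folds of 4.86, 6.84, 3.86, 5.60 and 7.38 covered 21.7% of 47761 bp, with scores up to 852.56 and 8 unlisted peaks. On nscaf2937 from 917654 to 951434, 5 peaks with folds of 5.27, 8.05, 5.80, 3.23 and 6.79 covered 26.4% of 33781 bp, and 3 of them scored above 500 (591.82, 848.28 and 927.3). On nscaf3097 from 462917 to 499422, 5 peaks with folds of 2.86 to 5.78 covered 13.3% of 36506 bp in groups of 2 and 3 separated by 25408 bp, with scores up to 270.12, and the first of them overlapped a forewing peak. The largest locus of 4 peaks, on nscaf3015 from 2562900 to 2608599, had folds of 3.87, 4.91, 5.42 and 3.61.

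The locus on nscaf2795, from 574027 to 636737, held the widest peak of the whole hindwing list, 12805 bp at 589938 to 602742 with a fold of 5.69 and a score of 762.33. Peaks of 3737 and 2612 bp followed it, and together the 5 peaks covered 34.6% of 62711 bp, with 10 unlisted peaks between them. The widest peak overlapped a peak of the first IgG list, at 595752 to 596333. That IgG peak was 582 bp wide, with a fold of 0.66 and a score of 56.86, so it met only a small part of the widest peak. Whether it bears on the breadth and score of the widest peak was not tested.

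**Figure D3:**
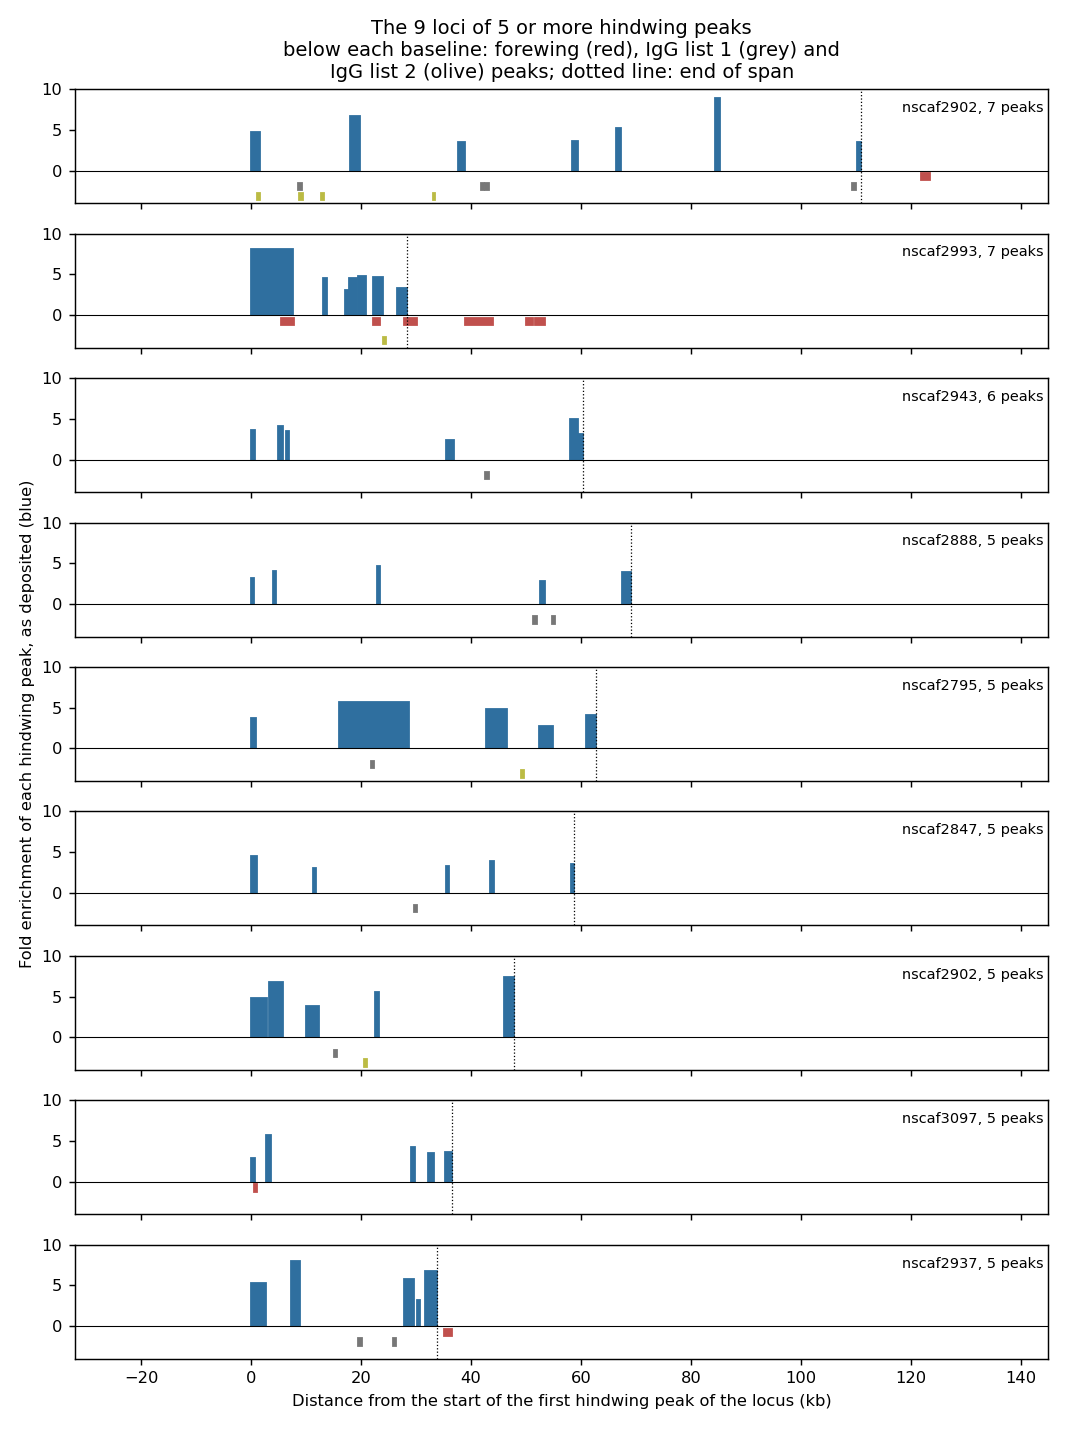
Each panel is 1 of the 9 loci of 5 or more hindwing peaks, with the distance from its first peak in kb on the x axis and bars that give the position, width and fold enrichment of each hindwing peak. Marks below the baseline are forewing peaks in the span or within 30 kb of it and IgG peaks in the span; on nscaf2902 the 7 peaks were spread over 110992 bp, while on nscaf2993 they covered 55.6% of 28266 bp and met 3 forewing peaks.

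Peak strength was compared first with the other hindwing peaks, as a description. The median fold enrichment, the ratio of the peak to its local background in input, was 4.25 in clustered peaks (quartiles 3.42 and 5.55) and 4.08 in the other peaks (3.34 and 5.25), beside 4.145 over all hindwing peaks, so the bulk of both classes coincided. The highest fold among clustered peaks was 11.53, and among the other peaks it was 18.92. The median score was 162 in clustered and 123.23 in the other peaks, with upper quartiles of 314.7 and 241.8, and it was 132.4 over all hindwing peaks. Clustered peaks were also wider, with a median of 933 bp against 829 bp and against 873 bp over all hindwing peaks, and 33 of them (7.88%) were at least 2 kb wide, against 16 (2.26%) of the others. The false discovery rate (FDR) deposited with the peaks had a median of 10.99% in clustered and 12.23% in the other peaks. When all hindwing peaks were ordered by score and divided into 4 classes of 282, clustered peaks made up 34.8%, 30.1%, 37.2% and 46.5% of the classes from the weakest to the strongest. The percentage was highest in the strongest class, where 131 peaks were clustered.

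These values varied with the size of the locus. The median fold was 3.97 in pairs, 4.80 in loci of 3, 5.28 in loci of 4 and 4.10 in loci of 5 or more peaks. The median score was 138.3, 229.13, 255.8 and 189.07 in the same order, and the median width was 907, 1057, 1059.5 and 1200 bp. Peaks in pairs were thus close to the other hindwing peaks in fold and score, while those in loci of 3 or 4 were higher. Width alone was highest in the largest loci, where 9 loci contributed 50 peaks.

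**Figure D4:**
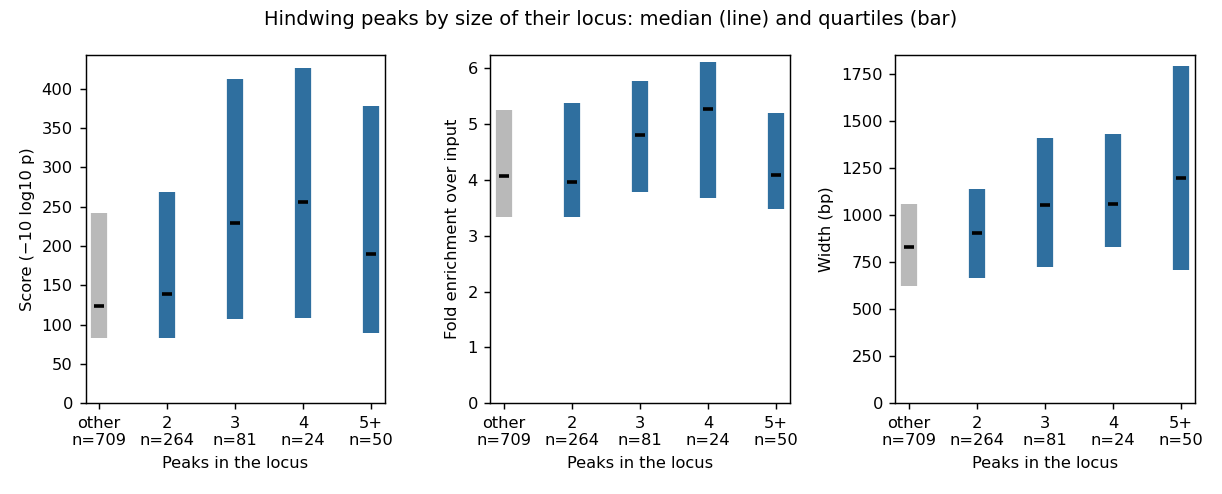
The panels give score, fold enrichment and width in bp of hindwing peaks by the number of peaks in their locus, with the median as a line, the quartiles as a bar and the peaks without a neighbour within 30 kb in grey. The median fold was 4.08 in the other peaks, 3.97 in pairs and 5.28 in loci of 4, and the median width rose from 829 to 1200 bp.

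The clustered peaks of highest score after the one on nscaf2993 were each the strongest of a locus of 2 or 3. The peak on nscaf2681 at 262960 to 265981 (score 2214.74, fold 8.07) stood between 2 weaker peaks, with scores of 149.33 and 550.86. On nscaf2828 the peak at 4005785 to 4009670 (score 1752.97, fold 8.64) overlapped a forewing peak and lay 332 bp from a peak with a score of 89.46. The peak on nscaf2527 at 16021 to 20342 (score 1660.97, fold 8.42) was paired with a peak at 2453 to 4639 that overlapped a forewing peak. On nscaf3074 the peak at 232652 to 236013 (score 1239.19, fold 5.45) overlapped a peak of the second IgG list. The highest folds belonged to narrower peaks, at nscaf2853, 2866620 to 2867644, and nscaf3033, 82874 to 83942, both with a fold of 11.53, and at nscaf2983, 885918 to 886707, with a fold of 10.32. On nscaf2822 both peaks of a pair were among the 5 of highest fold, at 130208 to 131102 (10.67) and 145474 to 146336 (10.04), with 14371 bp between them.

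The peaks of a pair were compared in score and in fold, whose ratios are on unlike scales since the score is a logarithm. In pairs the score of the stronger peak was a median of 1.97 times that of the weaker (quartiles 1.33 and 3.20, highest 12.8), and the median ratio of the folds was 1.36. The fold ratio was under 1.5 in 80 of the 132 pairs and at least 2 in 16. Taking the strongest peak by score of each of the 174 loci, the median fold was 5.27 and the median width 1068.5 bp, while the remaining 245 clustered peaks had medians of 3.76 and 829 bp. Choosing the strongest makes the first set high and the second low by construction. A difference of either set from the other hindwing peaks in fold or width therefore carries that choice. In the 42 loci of 3 or more peaks the strongest lay at an end of the chain in 27 and inside it in 15, and ends made up 54.2% of the places. That percentage pools all places, so larger loci, with a smaller share of ends, weigh more. It therefore understates the share of ends expected for the strongest peak of a locus.

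Neighbouring peaks of a locus were hardly alike. Across the 245 neighbouring pairs Spearman's rho was 0.072 for fold, 0.150 for score and 0.152 for width, and for the 176 pairs 30 to 100 kb apart it was 0.072, 0.028 and 0.084. These are correlations across peaks that share a library and, when close, part of their local background, and at this size they are no finding. By fold, both peaks were at or above the median of the hindwing list in 68 pairs, both were below it in 54, and 123 pairs had 1 on each side.

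Clustered peaks were found on many scaffolds. Nscaf2993 held most, 21 of its 30 hindwing peaks in 7 loci. It was followed by nscaf2902 with 20 of 33 in 6 loci, nscaf2888 with 17 of 42 in 7 loci, and nscaf2847 and nscaf2855 with 15 of 27 each. These 5 scaffolds together held 88 clustered peaks (21.0%). Among the 39 scaffolds with at least 10 hindwing peaks the clustered percentage ranged from 0% to 73.7%, with a median of 38.9%. The highest was on nscaf3027, where 14 of 19 peaks were clustered. Scaffolds with more peaks per Mb had a larger clustered percentage (Spearman's rho 0.384 over these 39 scaffolds, which share the libraries), a relation that the rule itself favours. Of the 81 scaffolds with a clustered peak, 39 had a single locus.

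The forewing list served as the comparison from the other wing bud and was not used to choose the peaks. Of all 1128 hindwing peaks 2.75% overlapped a forewing peak by at least 1 bp. Among clustered peaks 17 of 419 did so (4.06%, Wilson 95% interval 2.55% to 6.40%), and among the other peaks 14 of 709 (1.97%, 1.18% to 3.29%). The difference of 2.08 percentage points did not pass the test (Fisher's exact test, two-sided, p = 0.0575, adjusted p = 0.173 over the 3 shares compared). Peaks of a locus are not independent, and with the strongest peak of each locus alone the share was 6 of 174 (3.45%, Fisher's exact test, adjusted p = 0.713). That share depends on which peak is kept, since 13 of the 174 loci held a shared peak of any rank. The region on nscaf2993 supplied 4 of the 17, and without that scaffold, an alternative chosen after the data were seen, the shares were 3.27% and 2.00% (Fisher's exact test, adjusted p = 0.411). The test crossed the threshold when the limit on the gap was 100 kb, with 25 of 647 clustered (3.86%) against 6 of 481 other peaks (1.25%, Fisher's exact test, adjusted p = 0.0270). No other setting tried passed, and the adjustment covers the 3 shares but not the number of settings. The checks with the strongest peak of each locus and without nscaf2993 were not repeated at 100 kb. The intervals cover counting error only.

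**Figure D5:**
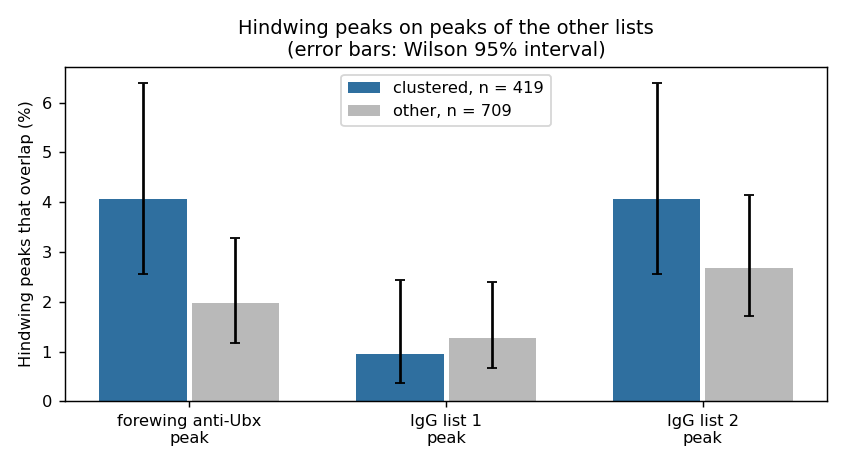
Bars give the percentage of clustered (blue, n = 419) and other (grey, n = 709) hindwing peaks that overlap a peak of the forewing list, IgG list 1 and IgG list 2, with Wilson 95% intervals for counting error. The shares were 4.06% and 1.97% for the forewing list, 0.955% and 1.27% for IgG list 1 and 4.06% and 2.68% for IgG list 2, and the intervals overlapped in each pair.

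Seen from the forewing list, 30 of its 339 peaks lay on a hindwing peak, 16 of them on a clustered peak. A further 2 forewing peaks lay inside the span of a locus but off its peaks, so 18 (5.31%) lay in a span, and 36 (10.6%) lay within 30 kb of a locus. Of the 174 loci 15 (8.62%) held a forewing peak in their span, and in 13 of these a hindwing peak overlapped it. By the same rule 28 of 339 forewing peaks (8.26%) had a neighbour within 30 kb, in 11 loci, and 2 of these 11 overlapped a hindwing locus. The forewing list is much shorter than the hindwing list of 1128 peaks. A shorter list has fewer neighbours within a fixed distance, so this share is not comparable with the hindwing share.

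Of the 13 loci with a shared peak, 10 had a single peak on a forewing peak, and in 3 of these 10 it was the strongest of the locus. Over all 17 shared peaks, 6 were the strongest of their locus. Besides those on nscaf2828, nscaf3097 and nscaf2993, the loci of 3 or more peaks concerned were on nscaf3074 (hindwing 224956 to 226236, forewing 225151 to 226848) and nscaf2859 (31180 to 32726 and 31339 to 32921). On nscaf2330 both peaks of a pair were shared, 3959175 to 3959989 and 3981385 to 3982386, each with its own forewing peak. On nscaf3033 the peaks at 338244 to 339165 and 339530 to 342119 lay under a single forewing peak, 338175 to 342169, so what was 1 peak in the forewing list was 2 in the hindwing list. The first or second peak of a pair was shared on nscaf2527 (2453 to 4639), nscaf2780 (257620 to 258835), nscaf2818 (3145256 to 3146535), nscaf2891 (2713089 to 2713973) and nscaf3056 (1439880 to 1440478), and in each of these 5 it was the weaker of the pair by score. On nscaf2800 (684618 to 714232) and nscaf2766 (775191 to 795174) the forewing peak, at 699313 to 699901 and 776611 to 777486, fell between the hindwing peaks. The 17 shared clustered peaks had a median score of 253.72 and a median fold of 4.46, against 160.7 and 4.24 in the clustered peaks off the forewing list. The 14 shared peaks among the others had medians of 388 and 6.41. The forewing peaks that met the 17 shared clustered peaks had folds of 1.30 to 2.73. Forewing and hindwing folds come from separate peak calls, and the folds of the whole forewing list were not summarised. This range is therefore not read as low or high.

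The locus with most forewing peaks in its span was the compact locus of 7 peaks on nscaf2993. It was followed after 41136 bp by a locus of 3, at 4832508 to 4865482, with folds of 3.42, 3.42 and 3.97. Together they spread over 102377 bp and held 10 hindwing peaks and 8 forewing peaks, which formed the largest chain of the forewing list. The 8 forewing peaks had folds from 1.39 to 2.23, and the 10 hindwing peaks had folds from 3.12 to 8.14. These folds come from separate peak calls and are not compared here. Forewing peaks at 4768488 to 4770904, 4785345 to 4786541 and 4790949 to 4793214 overlapped the first, sixth and seventh peaks of the compact locus, and 4832528 to 4833300 overlapped the first peak of the locus of 3. The remaining 4 forewing peaks, at 4801980 to 4807174, 4813102 to 4814463, 4814818 to 4816527 and 4822724 to 4824441, lay in the stretch between the loci, in which no hindwing peak was listed. That stretch did hold 18 unlisted hindwing peaks, the most in any of the 176 gaps of 30 to 100 kb, whose median was 2, and 1 other gap had as many. Where in the stretch these lay is not known from their numbers. Over the whole region lay 4 peaks of IgG list 1 and 2 of IgG list 2. All 4 of IgG list 1 lay in the stretch between the loci, which also held the 4 forewing peaks off hindwing peaks. Over the scaffolds with a hindwing peak IgG list 1 held 21.7 peaks per Mb, while this stretch held its 4 in 41136 bp. Whether these IgG peaks bear on the forewing peaks there was not tested. The 2 of IgG list 2 lay on the sixth and the last hindwing peak. This region was singled out after its values had been seen.

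The hindwing peaks were set beside 2 lists of peaks called in single IgG libraries of 3309855 and 2152046 tags after the duplicate filter. The input libraries they were called against kept 15271372 and 18224172 tags, so the IgG libraries were much shallower than their inputs. Both are labelled forewing, but the header of IgG list 1 names hindwing libraries. No list labelled as hindwing IgG was used here. By the study's account IgG peaks had already been subtracted from the anti-Ubx peaks, without saying from which wing bud those IgG peaks came. Low overlap may thus reflect that step, and these shares do not measure background independently. Within 1000 bp the shares of clustered and other peaks were 5.49% and 6.77% for IgG list 1. For IgG list 2 they were 8.11% and 6.77%. IgG list 1 overlapped 1.15% of all hindwing peaks, among them 4 clustered (0.955%, Wilson 95% interval 0.372% to 2.43%) and 9 other peaks (1.27%, 0.669% to 2.39%; Fisher's exact test, two-sided, p = 0.777, adjusted p = 0.777). IgG list 2 overlapped 3.19% of all hindwing peaks, among them 17 clustered (4.06%) and 19 other peaks (2.68%, 1.72% to 4.15%; Fisher's exact test, two-sided, p = 0.222, adjusted p = 0.333). Neither difference passed the test. Leaving out the 49 hindwing peaks on either list left 386 clustered peaks in 162 loci, and the largest then held 6. Between and on the peaks, the spans of the loci held 64 peaks of IgG list 1 and 76 of IgG list 2, or 19.9 and 23.6 per Mb, beside 21.7 and 19.6 per Mb over the scaffolds with a hindwing peak.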

How the data were processed

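Per the submitters' processing notes and the study's methods, the authors aligned reads with Bowtie 0.12.7, called peaks with MACS against input chromatin at an FDR of 15% or less, subtracted IgG peaks by their account, and kept those common to both replicates with bedtools. MACS 1.4.0rc2 made the IgG tables, per the file headers. The genome build is not given in the sources used here, and genes and sequences at the peaks were not analysed here. The deposited values are the score (10 times the negative log10 of the p-value), the fold enrichment (a ratio of ChIP over local background from input), the FDR in percent and, for IgG, tag counts per library. The anti-Ubx lists have no header, so what each column holds was worked out from the range and order of its values, and the replicate that gives the values is not stated. By that assignment the order of the columns differed between the hindwing and the forewing list. The anti-Ubx lists carry no read totals, although the study set a minimum number of reads for a valid replicate.

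Peaks were chained where the edge-to-edge gap was at most 30000 bp, and coordinates count from 1. Shares of peaks overlapping the forewing or an IgG list were compared by Fisher's exact test, two-sided, with Benjamini-Hochberg adjustment over 3 shares and Wilson 95% intervals. These tests set lists against each other rather than wing buds, since a peak is no replicate. Grouping followed the labels. The chaining recovered 200 of 200 groups planted in simulated data. Alternatives covered the gap limit, filters on width, fold, IgG overlap and scaffold extent, the overlap counted as shared and 1 peak a locus. Named are the 10 loci with most peaks, the 5 clustered peaks of highest score and of highest fold, loci with a peak on a forewing peak, the 3 smallest gaps and the 3 gaps on either side of the limit. The peaks, rules and tests were chosen with earlier results of these data known. Python 3.11.15, numpy 2.4.6, pandas 2.3.3, scipy 1.17.1 and matplotlib 3.10.9 were used.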

Additional observations from a re-analysis of the deposited data

How the results depend on the processing

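The numbers of clustered peaks and loci follow the gap limit. At 10 kb there were 225 clustered peaks in 102 loci, and at 100 kb 647 clustered peaks with a largest locus of 11. With only peaks of fold at or above the median there were 137 clustered peaks in 60 loci. Loci with a forewing peak in their span numbered 6 at 10 kb, 31 at 100 kb and 28 when spans were widened by 30 kb. With the strongest peak of each locus alone, the difference in median from the other peaks grew from 0.17 to 1.185 in fold and from 104 to 239.5 bp in width, as taking the highest of several makes it, and the share on IgG list 1 became 1.72%, above the 1.27% of the other peaks (Fisher's exact test, adjusted p = 0.713). At 100 kb the share on IgG list 2 was 2.78%, below the 3.74% of the other peaks (Fisher's exact test, adjusted p = 0.592), and the forewing share, 3.86%, passed the test (Fisher's exact test, adjusted p = 0.0270). That p-value is not adjusted for the number of settings tried. The share on either IgG list, 5.01% with both, was 0.955% to 4.06% with 1 IgG library left out. Of 58 alternatives 43 kept the call or stayed near the main value. For counts the tolerance was wide, and it took in 340 and 512 clustered peaks at limits of 20000 and 50000 bp, against 419. Merging close neighbours and leaving out nscaf2993 were added after the data were seen. No paired analysis was possible because each wing bud has 1 anti-Ubx list that does not separate its replicates, and each IgG list is a single library.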
